A study of Mus musculus with 6 samples.

Results

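The cytosolic ribosomal protein genes are the genes for the proteins of the small and the large subunit of the cytoplasmic ribosome. They were taken from the gene symbols of the deposited count table. A symbol counted when it began with Rpl or Rps and a digit, or was Rplp0, Rplp1, Rplp2 or Rpsa. Pseudogene names with -ps, the S6 kinases (Rps6k), Rps19bp1 and Rpl37rt were left out, which removed 10 symbols. The rule gave 76 of the 9088 listed genes. By symbol, 30 are of the small subunit (Rps) and 46 of the large subunit (Rpl), 3 of the latter being P stalk genes (Rplp). The 30 include Rps4l, which is annotated as a transcribed pseudogene. Rps27, Rps15a, Rps20, Rpl21, Rpl26 and Rpl30 are not listed, so the set does not hold every cytosolic ribosomal protein gene. The rule used no measured value. Of the 76 genes, 72 passed the filter on low counts and were tested, and Rpl34, Rps24, Rpl5 and Rpl22l1 did not.

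Thymic tuft cells, a rare chemosensory epithelial cell type, were sorted from thymi of wild-type (WT) mice, young and male, and kept as spun-down aggregates in culture for 12 h before, and 24 h after, a change of medium. They then received either 20 ng/mL recombinant interleukin 13 (rIL-13) or PBS as vehicle for 24 h. Polyadenylated RNA was counted by bulk MARS-seq, which tags each captured molecule near its 3' end with a unique molecular identifier (UMI), in 3 libraries of each group. The question is how the mRNAs for the ribosome itself stood in these cells with and without the cytokine. The labels name no driver line, donor pool or culture of origin for a library, so p-values measure only the spread between these samples, which may be technical.

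A ribosome holds 1 copy of nearly every ribosomal protein, so growing cells make these proteins in matched amounts, from genes spread over most chromosomes. Their mRNAs are short and very abundant. In mammals they begin with a run of pyrimidines, the 5' terminal oligopyrimidine (TOP) tract, through which the growth kinase mTOR and the RNA-binding protein Larp1 set how much of them is translated. RNA counts do not measure translation. In bulk samples, fewer cells of a type and less RNA per cell cannot be told apart.

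Listed genes summed to 394513, 457823 and 489919 UMIs in the vehicle libraries (replicates 1, 2 and 3, the order used throughout), and to 295614, 287198 and 248028 in the rIL-13 libraries. The ribosomal protein genes alone gave between 40259 and 71217 UMIs per library, so counting error was small for most of them. All 18 tuft cell markers checked were listed, Trpm5, Avil and Pou2f3 among them. Their summed share of UMIs was 0.493% to 0.56% in vehicle libraries and 0.484%, 0.847% and 0.897% in rIL-13 replicates 1, 2 and 3 (two-sided exact permutation p = 0.4). Of the thymocyte markers 0 of 10 were listed and of the erythroid markers 0 of 3. Fibroblast markers (8 of 9 listed) held 0.157% to 0.235% in vehicle libraries and 0.24%, 0.149% and 0.106% in rIL-13 replicates 1, 2 and 3. Markers of dividing cells (8 of 10 listed) held 0.0712% to 0.0847% in vehicle libraries and 0.069% to 0.0734% with rIL-13. Thymic epithelial markers (5 of 8 listed) held 0.372% to 0.441% in vehicle libraries and 0.357%, 0.492% and 0.509% in rIL-13 replicates 1, 2 and 3. Myeloid (2 of 7), B cell (1 of 4) and endothelial (3 of 5) markers each held at most 0.0183%.

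Ribosomal protein mRNAs were among the most abundant in these cells, and their levels spanned a wide range. Levels are given as CPM, the UMIs of a gene relative to those of all tested genes in its library, scaled by TMM factors. Since a molecule gives 1 UMI whatever its length, CPM was not divided by length when genes were compared. The median gene of the set stood at 1629 CPM, against 76.6 CPM for the median of all tested genes, and 30 of the 50 most abundant listed genes were ribosomal protein genes. Over all 6 libraries 54 of the 76 genes averaged at least 1000 CPM, 16 lay between 100 and 1000 CPM and 6 under 100 CPM. The median level was 2092 CPM for small-subunit genes and 1467 CPM for large-subunit genes.

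The highest level was that of Rplp1, an acidic protein of the P stalk that helps to recruit elongation factors. Rplp1 stood at 9953, 9231 and 8346 CPM in vehicle replicates 1, 2 and 3 and at 10106, 8312 and 9398 CPM with rIL-13. These ranges overlapped. Next came Rpl41, the smallest ribosomal protein, at 7129, 8003 and 7156 CPM in vehicle libraries, and 8493, 7408 and 9060 CPM under rIL-13. Rps2, a protein near the mRNA entry of the small subunit, followed at 7988, 6973 and 7185 CPM in vehicle libraries, and 7387, 5483 and 5757 CPM under rIL-13. Together Rplp1, Rpl41 and Rps2 gave 14.5% of all ribosomal protein UMIs. Rpl13a followed, at a mean of 4802 CPM over the 6 libraries.

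At the other end stood Rpl34, Rps24, Rpl5, Rpl22l1 and Rpl15. Rpl34 had 10, 4 and 4 UMIs in vehicle libraries, and 6, 3 and 4 under rIL-13. Rps24 had 8, 11 and 3 UMIs in vehicle libraries, and 7, 1 and 5 under rIL-13. Rpl5 had 10, 3 and 8 UMIs in vehicle libraries, and 6, 6 and 12 under rIL-13, whereas its partner Rpl11 averaged 3083 CPM. Rpl5 and Rpl11 sit side by side in the particle built around the 5S ribosomal RNA, and in mouse and human cells the free particle binds the p53 regulator Mdm2. The mean of Rplp1 was 578 times that of Rpl34.

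**Figure D1:**
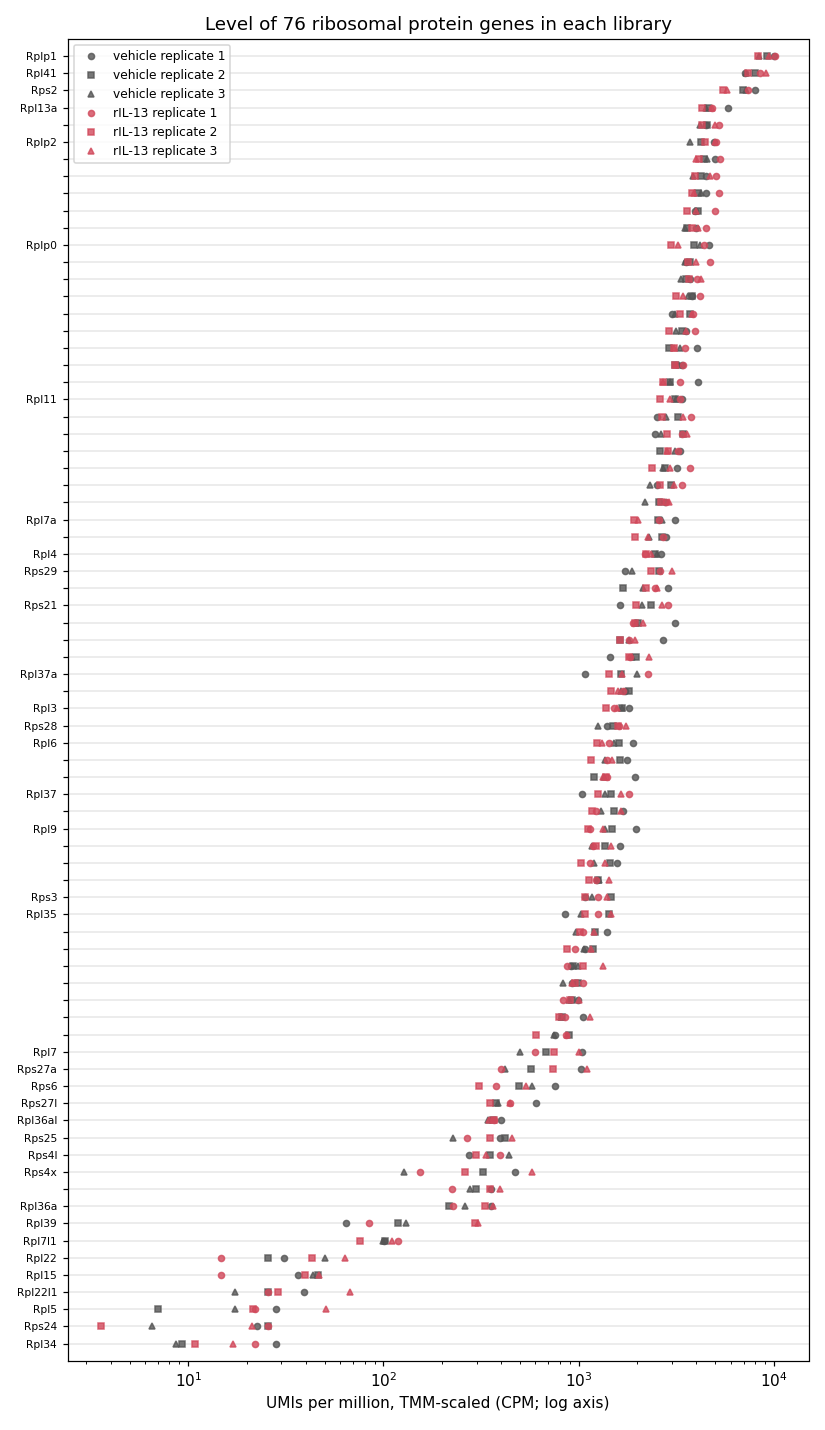
TMM-scaled CPM (log axis) of each of the 76 ribosomal protein genes, ordered by their mean over 6 libraries, with names for genes described in the text. Each point is 1 library (grey, vehicle; red, rIL-13), and from Rplp1 at 9224 CPM to Rpl34 at 16.0 CPM the red and grey points of most genes lie among each other.

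These levels depend on how reads from copies of a gene were assigned, which is not given in the sources used here. Ribosomal protein genes have left many processed pseudogenes in the mouse genome. When the last 150 coding bases of each gene were compared with all GENCODE M21 transcripts, 72 of the 76 genes had at least 1 other gene with 95% identity or more over 90% of that stretch. The median number of such genes was 5, and the highest was 51, for Rpl7a, followed by 41 for Rps2. The number of such copies showed little relation to level across the 76 genes (Spearman rho = -0.08, a description across genes that share libraries). The stretch compared left out the bases after the coding part, where tags near the 3' end can lie. Whether copies changed the levels was not tested. Of the genes at the bottom, Rpl34 and Rpl5 had 5 each, Rps24 had 7 and Rpl15 had 12. The level of every gene with such copies is therefore uncertain. The exons of 18 of the genes also overlapped those of another annotated gene, on the opposite strand for Rps28, Rps27a and Rpl5 among others. Several such neighbours are listed genes, for example Arpc5l for Rpl35 and Ccdc84 and Trappc4 for Rps25. Whether the counting used strand is not given in the sources used here.

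The share of the mRNA pool taken by the whole set differed between the groups by less than the spread between libraries. The 76 genes held 15.7%, 15.4% and 14.5% of listed UMIs in vehicle replicates 1, 2 and 3 and 16.4%, 14.4% and 16.2% with rIL-13. The lowest and the highest share were both in rIL-13 libraries, so the vehicle range lay inside the rIL-13 range. The mean share was 15.2 ± 0.607% in vehicle libraries and 15.7 ± 1.11% with rIL-13 (SD over n = 3; exact permutation test, two-sided, p = 0.6, where 0.1 is the smallest that 3 against 3 allows). Without rIL-13 replicate 2 the mean difference was 1.09 percentage points (exact permutation p = 0.2, n = 3 and 2, the smallest p that these numbers allow). It was 0.53 without vehicle replicate 2, 0.69 without vehicle replicate 1 and 0.11 without vehicle replicate 3. Leaving out rIL-13 replicate 3 gave 0.16, and leaving out rIL-13 replicate 1 gave 0.09.

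The subunits were then taken apart, and the shares of the groups overlapped for either. Small-subunit genes held 6.44%, 6.59% and 6.12% of UMIs in vehicle libraries, and 7.01%, 6.11% and 6.93% under rIL-13 (two-sided exact permutation p = 0.4). Large-subunit genes held 9.27%, 8.8% and 8.41% in vehicle libraries, and 9.36%, 8.26% and 9.3% under rIL-13 (exact permutation p = 0.8). The difference in the large-subunit share, 0.142 percentage points, changed sign to -0.07 without vehicle replicate 3, to -0.05 without rIL-13 replicate 1 and to -0.02 without rIL-13 replicate 3. The log2 ratio of small-subunit to large-subunit UMIs, which needs no scaling between libraries, was -0.527, -0.417 and -0.459 in vehicle libraries and -0.417, -0.434 and -0.423 with rIL-13. Vehicle replicate 1 lay lowest, and the other 5 libraries ran from -0.459 to -0.417. The mean difference was 0.043 (two-sided exact permutation p = 0.3), it was 0.01 without vehicle replicate 1 and 0.07 without vehicle replicate 2, and it was 0.09 (exact permutation p = 0.1) when Rplp1, Rpl41 and Rps2 were left out of the sums. The 3 P stalk genes made up 1.64 ± 0.117% of UMIs in vehicle libraries and 1.67 ± 0.136% under rIL-13 (SD, n = 3 each; exact permutation p = 0.8).

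**Figure D2:**
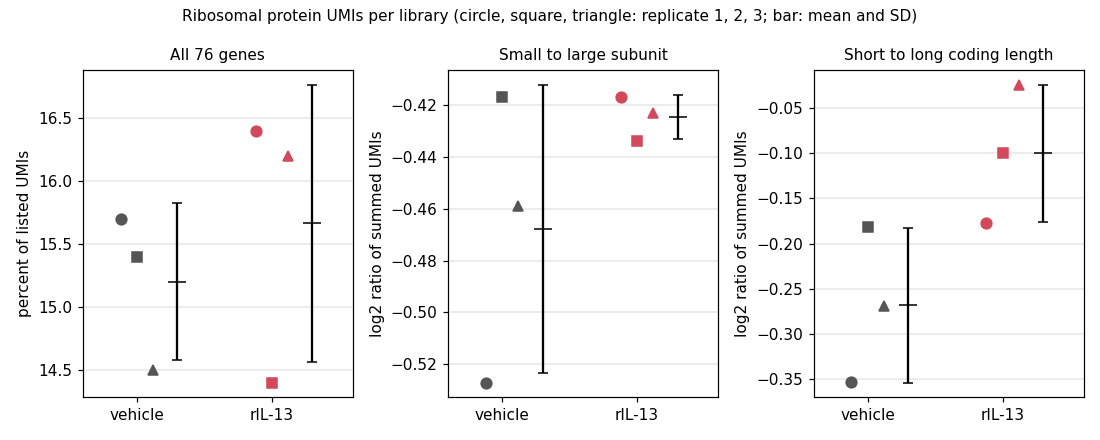
Share of listed UMIs held by the 76 genes (left), log2 ratio of small-subunit to large-subunit UMIs (middle) and log2 ratio of UMIs of the 36 tested genes with a coding length up to 468 bases to those of the 35 longer ones (right), 1 symbol per library, with the mean and SD of each group. The groups overlap in the left panel. In the right panel the rIL-13 libraries run from -0.177 to -0.024 and the vehicle libraries from -0.354 to -0.182. The split by length was made after the values were seen.

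No ribosomal protein gene passed the test between the groups. With edgeR's quasi-likelihood test, 0 of 72 tested genes of the set had a Benjamini-Hochberg adjusted p under 0.05, where 3 of all 5135 tested genes did (0.0584%). By direction, 0.0389% of all tested genes passed as higher with rIL-13 and 0.0195% as lower, and 0 genes of the set passed in either. At an unadjusted p under 0.05 there were 3 ribosomal protein genes, or 4.17% of them, against 5.49% of all tested genes. Rpl39 was the 1 that was higher (background 3.08%), and Rps6 and Rpl9 were the 2 that were lower (background 2.41%). DESeq2 called 0 of 76 (2 at an unadjusted p under 0.05; 0.0661% of all genes called), edgeR with no filter 0 of 76 (3 at an unadjusted p under 0.05; 0.077% of all genes called), edgeR with a replicate block 0 of 72 (2 at an unadjusted p under 0.05; 0.253% of all genes called) and limma voom 0 of 72 (1 at an unadjusted p under 0.05; 0 of all genes called). In the authors' deposited table the adjusted p was 1 for all 76 genes. Log2 fold changes were positive for 37 genes and negative for 35, with a median of 0.01 beside 0.00 over all tested genes. The middle of the distribution ran from -0.13 to 0.16 (quartiles), and 70 of the 72 values were smaller than 0.5 in size. The median size of a log2 fold change was 0.15 in the set and 0.25 over all tested genes, with a median standard error of 0.19 and 0.35. Rps3, a small-subunit protein at the mRNA entry chosen after its values were seen, averaged 1240 CPM in either group. The small subunit had a median of 0.05 (29 tested genes) and the large subunit 0.01 (43 tested genes).

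**Figure D3:**
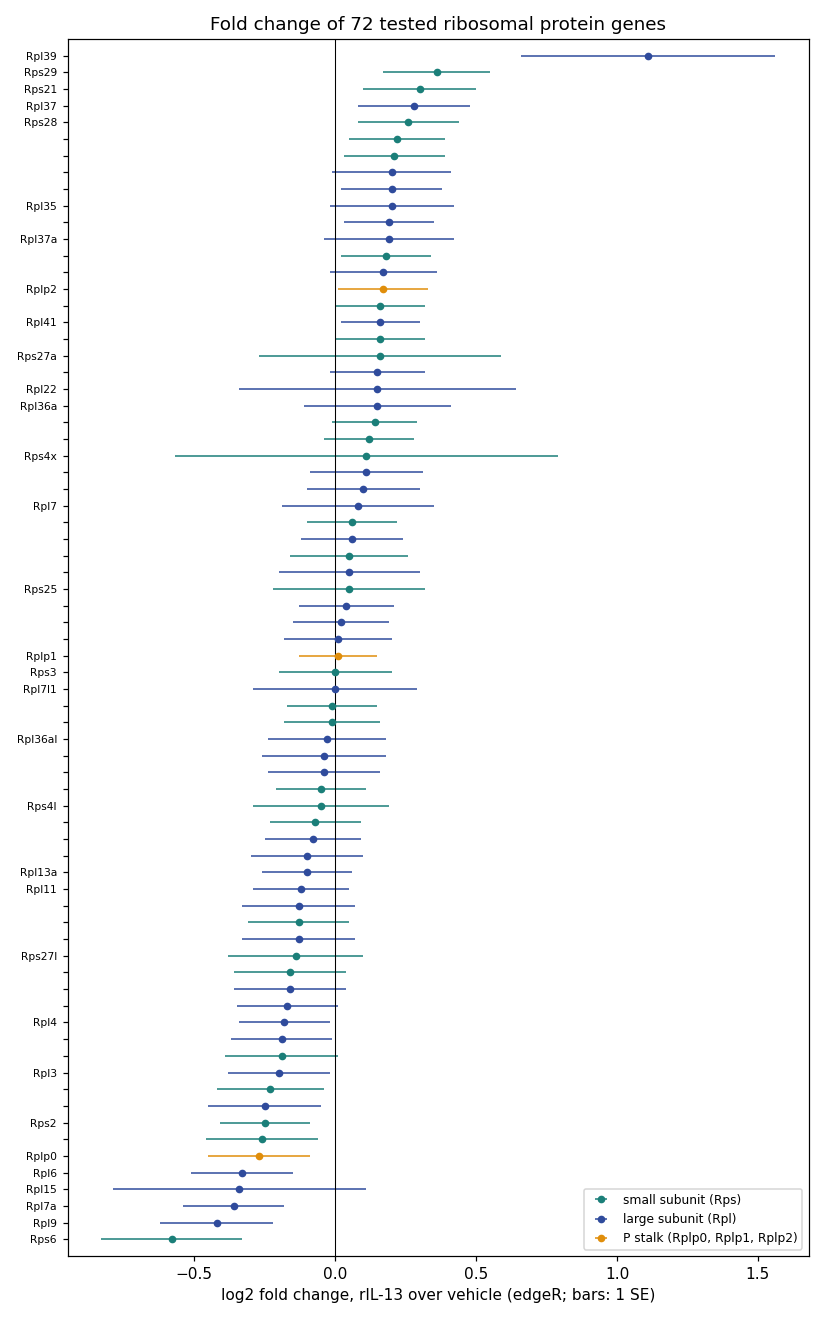
Log2 fold change of rIL-13 over vehicle for the 72 tested ribosomal protein genes, ordered by size, with bars of 1 standard error (edgeR), coloured by subunit, with names for genes described in the text. Rpl39 at 1.11 and Rps6 at -0.58 are the outermost values and no gene passed the threshold.

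The 5 genes with the smallest p among those higher with rIL-13 were Rpl39, Rps29, Rps21, Rps28 and Rpl37. Rpl39, a protein that lines the exit tunnel of the large subunit, is annotated at X:37082520-37085402, minus strand (GENCODE M21, mm10), as a protein-coding gene. It had 23, 51 and 60 UMIs in vehicle libraries, and 23, 82 and 72 under rIL-13, or 64.6, 118 and 130 CPM and 84.5, 294 and 304 CPM. Replicates 2 and 3 with rIL-13 stood above every vehicle library, and rIL-13 replicate 1 stood among the vehicle libraries. The log2 fold change was 1.11 ± 0.45 (SE, n = 3 per group; edgeR adjusted p = 0.86). Without rIL-13 replicate 1 it was 1.48 and passed (edgeR adjusted p = 0.0205), where 0.475% of 6099 tested genes passed. The other 14 alternatives tried gave adjusted p-values for Rpl39 from 0.232 to 1.0. Rpl39 has 9 near-identical pseudogene copies.

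Rps29, a zinc-binding protein of the small-subunit head, had 1721, 2583 and 1875 CPM in vehicle libraries, and 2619, 2334 and 2999 CPM under rIL-13. Its log2 fold change was 0.36 ± 0.19 (edgeR adjusted p = 0.86), and the groups overlapped through vehicle replicate 2 and rIL-13 replicate 2. Rps21 had 1631, 2358 and 2099 CPM in vehicle libraries, and 2865, 1971 and 2665 CPM under rIL-13, at 0.30 ± 0.20 (edgeR adjusted p = 0.877). Rps28, a small-subunit protein by the path of the outgoing mRNA, was the single gene of the set with every rIL-13 library above every vehicle library (background 5.76%). It stood at 1392, 1492 and 1259 CPM in vehicle libraries, and 1605, 1598 and 1749 CPM under rIL-13, and the fold change on the log2 scale was 0.26 ± 0.18 (edgeR adjusted p = 0.909). Rpl37 was at 0.28 ± 0.20 (edgeR adjusted p = 0.911).

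The 5 genes with the smallest p among those lower with rIL-13 were Rps6, Rpl9, Rpl7a, Rpl6 and Rps2. Rps6, the small-subunit protein phosphorylated by the S6 kinases downstream of mTOR, is annotated at 4:86854660-86857412, minus strand. It had 268, 214 and 266 UMIs in vehicle libraries, and 103, 86 and 127 under rIL-13, or 752, 497 and 577 CPM and 378, 309 and 536 CPM. The groups overlapped only in that rIL-13 replicate 3 lay above vehicle replicate 2. The log2 fold change was -0.58 ± 0.25 (edgeR adjusted p = 0.832). Its listed pseudogene Rps6-ps4 is not a member, and 13 copies near-identical to Rps6 are annotated.

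Rpl9, a large-subunit protein near the base of the stalks, had 1968, 1480 and 1361 CPM in vehicle libraries, and 1146, 1120 and 1330 CPM under rIL-13. Every rIL-13 library lay below every vehicle library, and the fold change on the log2 scale was -0.42 ± 0.20 (edgeR adjusted p = 0.86). Rpl7a, of the outer face of the large subunit, had 3127, 2557 and 2659 CPM in vehicle libraries, and 2564, 1914 and 2015 CPM under rIL-13, at -0.36 ± 0.18 (edgeR adjusted p = 0.86). Rpl6 had 1895, 1601 and 1522 CPM in vehicle libraries, and 1436, 1239 and 1322 CPM under rIL-13, at -0.33 ± 0.18 (edgeR adjusted p = 0.86), again with no overlap. Rps2, whose levels are given above, was at -0.25 ± 0.16 (edgeR adjusted p = 0.866).

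The annotated start sites were read for the pyrimidine tracts described above. RefSeq promoter windows on GRCm38.p6, 250 bases before to 50 bases from the start, were matched by symbol for 58 of the 76 genes, with 69 windows. The sequence around the start is shown for the 9 genes of the 10 with the smallest p above that were matched, from 15 bases before to 15 bases from the start, 5′ to 3′, to set the tract beside the values. Capitals mark the longest run of a C followed by 4 or more pyrimidines, where there is one.
Rps6 (chr4:86857353-86857382, minus strand): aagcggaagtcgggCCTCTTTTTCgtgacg
Rpl9 (chr5:65391417-65391446, minus strand): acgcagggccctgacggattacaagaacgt
Rpl7a (chr2:26910792-26910821, plus strand): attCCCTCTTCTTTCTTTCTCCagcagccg
Rpl6 (chr5:121204486-121204515, plus strand): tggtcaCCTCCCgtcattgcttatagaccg
Rps2 (chr17:24720048-24720077, plus strand): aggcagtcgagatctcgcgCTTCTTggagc
Rpl39 (chrX:37085208-37085237, minus strand): cctaagctccgcctctagcgaCTTCTTCTa
Rps21 (chr2:180257364-180257393, plus strand): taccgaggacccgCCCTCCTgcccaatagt
Rps21, a second start (chr2:180257434-180257463, plus strand): ggacaagtgagcaggtaggcctcggtgcgg
Rps28 (chr17:33824548-33824577, minus strand): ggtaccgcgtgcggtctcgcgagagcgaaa
Rpl37 (chr15:5116598-5116627, plus strand): agtttcctgggcggaagcttatccacagga
Runs of this kind stood in the windows of Rps6, Rpl7a, Rpl6 and Rps2, which had lower values with rIL-13, and of Rpl39 and the upstream start of Rps21, which had higher values. They did not stand in those of Rpl9, Rps28 and Rpl37. The share of all windows with such a run anywhere in this stretch was not counted, so these listings have no background beside them. The run covered the RefSeq start for Rps6, Rpl7a and Rps21, ended before it for Rpl6 and began after it for Rps2 and Rpl39. Not every marked run is therefore at the annotated 5' end. GENCODE M21 places the start of Rpl37 at 5116645, after the end of the stretch shown. For Rps6, Rpl7a, Rpl6, Rps2 and Rpl39 the outermost GENCODE M21 start also lies outside the stretch shown.

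Over all 69 windows, a C at the annotated start followed by 4 pyrimidines was found in 11, or 15.9%, against 2.51% of 32851 windows of all genes. The motif CTTTC within 20 bases of the start, read on the gene's strand, stood in 23.2% of windows against 5.49% of all. CCGGAAG, the core bound by ETS-family factors, searched on both strands of the 300 bases, stood in 36.2% against 8.86%. TTC and GAA with 4 bases between them, the spacing preferred by STAT6, stood in 7.25% against 6.95%, and TATAAA in 10.1% against 13.6%, both on both strands. A match is a description of letters and not a site.

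In all, 5 ribosomal protein genes had no overlap between the groups' libraries, which is 6.94% of those tested against 11.7% of all tested genes. The 4 that lay lower with rIL-13 were Rpl9, Rpl6, Rpl3 and Rpl4, and the background in that direction was 5.94%. Rpl3, which reaches to the peptidyl transferase centre, had 1810, 1673 and 1674 CPM in vehicle libraries, and 1524, 1372 and 1580 CPM under rIL-13. Rpl4, which like Rpl39 forms part of the exit tunnel, had 2652, 2450 and 2516 CPM in vehicle libraries, and 2175, 2205 and 2332 CPM under rIL-13. Their log2 fold changes were -0.20 ± 0.18 and -0.18 ± 0.16 (edgeR adjusted p = 0.926 for both). Rpl3 and Rpl4 have the longest coding sequences of the set, at 1209 and 1257 bases.

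Fold changes were ordered by coding length within the set. Across the 71 tested genes with an annotated coding sequence, the log2 fold change had a Spearman rho of -0.55 with coding length. This is a description across genes of the same 6 libraries. It was -0.39 over 28 small-subunit genes and -0.64 over 43 large-subunit genes, and 0.07 for log2 fold change against mean CPM. Of the 10 shortest genes, with 75 to 315 coding bases, 9 had positive values, with a median of 0.23. These were Rpl41, Rpl39, Rps29, Rps28, Rpl38, Rps21, Rps27l, Rpl37a, Rpl37 and Rpl36, of which Rps27l alone was negative. Of the 10 longest, with 789 to 1257 coding bases, 7 were negative, with a median of -0.19. The positive ones among these were Rps4x, Rps3a1 and Rpl7. Split at the median coding length of 468 bases, a split made after the values were seen and therefore not tested, 27 of 36 shorter genes had positive values (median 0.14) and 25 of 35 longer genes negative ones (median -0.10).

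**Figure D4:**
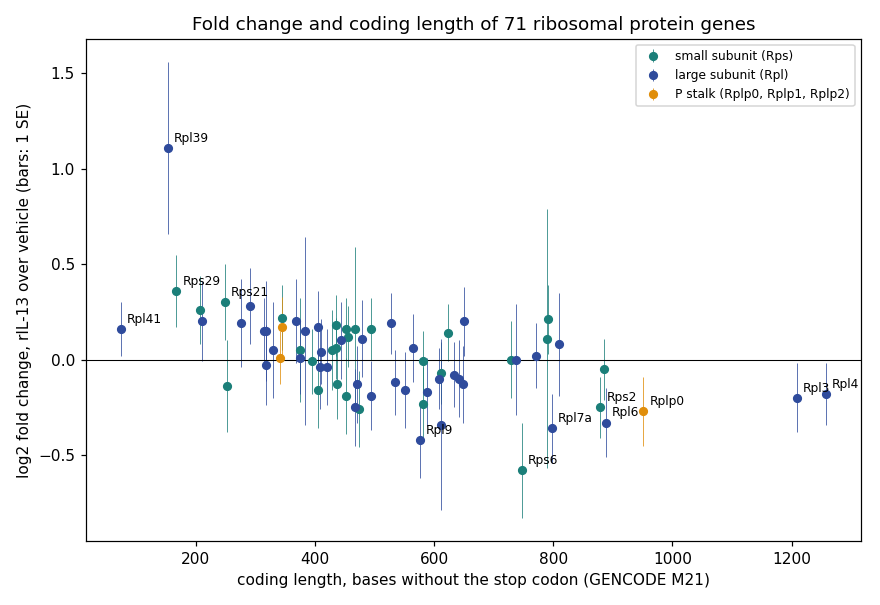
Log2 fold change of rIL-13 over vehicle (bars, 1 standard error) against coding length in bases for 71 tested ribosomal protein genes, coloured by subunit. Values run from above 0 for most short genes on the left, such as Rpl39 at 1.11 and Rps29 at 0.36, to below 0 for most long genes, such as Rps6 at -0.58 and Rpl7a at -0.36.

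The order by length differed from library to library. The log2 ratio of summed UMIs of the shorter to the longer genes was -0.354, -0.182 and -0.269 in vehicle libraries and -0.177, -0.099 and -0.024 with rIL-13. The groups did not overlap, although vehicle replicate 2 and rIL-13 replicate 1 nearly met. The mean difference was 0.17, and 0.13 to 0.21 with each library left out in turn. The genes were split after the same fold changes were seen, so neither the separation nor this range is separate support for the order. Each gene's deviation from its own mean had a Spearman rho with coding length of 0.43, 0.17 and 0.31 in vehicle replicates 1, 2 and 3 and of -0.03, -0.41 and -0.46 with rIL-13. A gene's deviations cancel over the 6 libraries, so opposite signs in the groups largely restate the order of the fold changes.

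Other mRNAs of high level were ordered by coding length in the same direction, with a weaker rank correlation. Among 288 other tested genes at 500 CPM or more, rho was -0.23, and over all 5031 tested genes with a coding length it was 0.09. Split by coding length as above, 93 shorter genes of the 288 had a median log2 fold change of 0.05. The 195 longer ones had -0.11, beside 0.14 and -0.10 for shorter and longer ribosomal protein genes. Over all other tested genes the medians were 0.03 and 0.00. Whether the order by length is particular to ribosomal protein genes was not tested. The log2 ratio of shorter to longer genes among those 288 was -1.45, -1.34 and -1.53 in vehicle libraries and -1.48, -1.23 and -1.06 with rIL-13, and rIL-13 replicate 1 lay within the vehicle range. The rIL-13 replicates 2 and 3, which had the highest ratios in both sets of genes, also had the highest tuft marker shares, given above, and rIL-13 replicate 3 the fewest UMIs. The part of marker share or depth in the order by length was not tested.

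Most ribosomal protein genes varied little between libraries, and a few varied much. Among the 70 genes at 100 CPM or more, the median ratio of the highest to the lowest library was 1.45, against 1.8 for 1929 other tested genes above the same floor, which were not matched to the ribosomal protein genes in level. It was under 1.5 for 40 genes and at least 2 for 7, namely Rpl39, Rps4x, Rps27a, Rps6, Rpl37a, Rpl7 and Rps25. Rps4x, an X-linked small-subunit gene, had 469, 323 and 128 CPM in vehicle libraries, and 154, 262 and 579 CPM under rIL-13. Rps27a, made as a fusion to ubiquitin, had 1022, 571 and 421 CPM in vehicle libraries, and 400, 740 and 1102 CPM under rIL-13. Rpl7 had 1044, 682 and 501 CPM in vehicle libraries, and 599, 747 and 1005 CPM under rIL-13. Rps4x, Rps27a and Rpl7 were each highest in vehicle replicate 1 and rIL-13 replicate 3 and lowest in vehicle replicate 3 and rIL-13 replicate 1. Rps25 shared the latter pair, at 228 and 268 CPM, against 352 to 456 CPM elsewhere. The log2 fold changes of Rps4x (0.11 ± 0.68), Rps27a (0.16 ± 0.43), Rpl7 (0.08 ± 0.27) and Rps25 (0.05 ± 0.27) were all smaller than their standard errors, and each was negative without vehicle replicate 3 or rIL-13 replicate 3.

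Several genes of the set have a close relative that was listed too. Rps4l, annotated as a single-exon transcribed pseudogene on chromosome 6, is 79.9% identical to Rps4x over 783 aligned bases. Of the summed UMIs of Rps4x and Rps4l, Rps4l gave 37%, 52.1% and 77.4% in vehicle libraries, and 72%, 53.2% and 36.6% under rIL-13. The sum of both was 265, 290 and 261 UMIs in vehicle libraries, and 150, 156 and 216 under rIL-13. Rpl36al, a single-exon relative of the X-linked gene Rpl36a with 87.7% identity over 318 coding bases, gave 53.2%, 62.8% and 57% of their joint UMIs in vehicle libraries, and 61.7%, 52.8% and 48.8% under rIL-13. Rpl36a and Rpl36al had log2 fold changes of 0.15 ± 0.26 and -0.03 ± 0.21.

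Rpl22, which in mice is required for the development of alpha-beta T cells, and its paralog Rpl22l1 both had low counts. Each has 2 near-identical copies, so these levels are uncertain. Rpl22 had 11, 11 and 23 UMIs in vehicle libraries, and 4, 12 and 15 under rIL-13, and Rpl22l1 had 14, 11 and 8 in vehicle libraries, and 7, 8 and 16 under rIL-13. Their coding sequences are 72.7% identical. Rpl7l1 averaged 101 CPM in each group, at a log2 fold change of 0.00 ± 0.29, and gave 8.82% to 16.6% of its joint UMIs with Rpl7. Rps27l, a target of p53 in mouse and human cells, averaged 434 CPM, for an estimated log2 fold change of -0.14 ± 0.24. Its relative Rps27 is not among the listed genes. P stalk genes were at -0.27 ± 0.18 for Rplp0, the anchor of the stalk, 0.01 ± 0.14 for Rplp1 and 0.17 ± 0.16 for Rplp2 (edgeR adjusted p = 0.877, 0.996 and 0.926). Rpl11 was at -0.12 ± 0.17.

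Genes of the rest of the translation machinery did not pass the threshold either. In 6 of the 7 lists used, translation initiation factors (31 tested), elongation and release factors (11), ribosome assembly factors (55), RNA polymerase I and its factors (10), ribosome-associated and other TOP mRNAs (9) and growth control by mTOR (13), 0 genes were called higher and 0 lower by edgeR. An unadjusted p under 0.05 was found for 6 of their 129 tested genes, or 4.65%, against 5.49% of all tested genes. Groups did not overlap for 9 of the 129 that lay lower with rIL-13 (6.98%, against 5.94% of all tested genes) and for 6 that lay higher (4.65%, against 5.76%). Medians of the log2 fold change were -0.07, -0.08, -0.04, -0.17, -0.18 and -0.09 in that order, beside 0.00 over all tested genes. The other list, of ribosomal proteins made as fusions to a ubiquitin-type protein, is not reported as a whole; its members Rps27a and Fau were at 0.16 ± 0.43 and 0.05 ± 0.18. Among the members with the smallest p, Btf3, a subunit of the complex that receives new chains at the exit tunnel, had 34, 48 and 44 UMIs in vehicle libraries, and 9, 14 and 17 under rIL-13. Its log2 fold change was -0.97 ± 0.34 (edgeR adjusted p = 0.703). Pabpc1, which binds the poly(A) tail and is itself a TOP mRNA, had 811, 1030 and 671 CPM in vehicle libraries, and 540, 542 and 587 CPM under rIL-13, at -0.59 ± 0.22 (edgeR adjusted p = 0.804).

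The elongation factor gene Eef1a1 had 3326, 3845 and 2956 CPM in vehicle libraries, and 2796, 2474 and 2703 CPM under rIL-13, at -0.35 ± 0.17 (edgeR adjusted p = 0.86). The 9 genes without overlap that lay lower were Btf3, Pabpc1, Eef1a1, Sbds, Ltv1, Rrs1, Polr2e, Polr1d and Mdm2, and the 6 that lay higher were Rrp12, Utp20, Gnl3, Eif4h, Polr2f and Ddit4. Eif4e2, a relative of the cap-binding protein, was at -0.58 ± 0.28 (edgeR adjusted p = 0.86). Rack1, a scaffold protein on the small-subunit head, was at -0.26 ± 0.17 and the synthetase-associated factor gene Eef1e1 at -0.94 ± 0.42 (edgeR adjusted p = 0.874 and 0.86). Of the assembly factors, Rrp12 had 7, 14 and 7 UMIs in vehicle libraries, and 13, 13 and 13 under rIL-13, at 1.13 ± 0.45, and Sbds, which helps to release a block on subunit joining, was at -0.60 ± 0.28 (edgeR adjusted p = 0.804 and 0.86). Polr2e and Polr1d, subunits that RNA polymerase I shares with other polymerases, were at -0.35 ± 0.23 and -0.25 ± 0.21. Mdm2, the p53 regulator bound by Rpl5 and Rpl11, was at -0.79 ± 0.32 and Ddit4, an inhibitor of mTOR, at 0.57 ± 0.32 (edgeR adjusted p = 0.806 and 0.86).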

How the data were processed

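Bulk MARS-seq libraries of cultured thymic tuft cells were grouped by their titles, 3 per group. Per the submitters' processing notes, bcl2fastq, cutadapt, STAR 2.5.2b, HTSeq and DESeq2 were used with build mm10, with no roles or order given. Per the file headers, the authors deposited raw UMI counts per gene, which alone were tested here. Their normalized signal (counts divided by size factors), their regularized log2 values and their mean signal were deposited too and not used. Their log2 fold changes and p-values enter as the authors' deposited table. The table lists only genes that reach 6 UMIs in 1 library or more; its sums can fall short of the full depth.

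edgeR 4.0.16 (R 4.3.3) was run on the whole table (quasi-likelihood, robust dispersion, with no covariate beside the group), after filterByExpr and TMM scaling. This kept 5135 genes with 93.8% of UMIs, and p was adjusted over all of them (Benjamini-Hochberg). Standard errors are those implied by the F statistic. CPM are over the UMIs of tested genes. Shares were compared by two-sided exact permutation. Alternatives were DESeq2 1.42.0, limma 3.58.1 (voom), other scaling, filters, a replicate block and each library left out. The fits were checked on simulated counts. Coding lengths (without the stop codon) and coordinates come from GENCODE M21 on mm10, copies from BLAST 2.17.0, and promoter windows from RefSeq. Deviations used log2(CPM + 1). The members and lists were chosen with earlier results of these data known. Named genes were the 5 highest and 5 lowest in level, for either direction the 5 of smallest p, relatives, P stalk and Rpl5 and Rpl11, and the 2 with the smallest p per list; other names, Rpl3, Rpl4, Rpl35, Rpl37a, Rps3 and Rps25 among them, were added after their values were seen. Some genes that this rule names are not reported here.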

Additional observations from a re-analysis of the deposited data

How the results depend on the processing

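Over all tested genes the counts of calls higher and lower with rIL-13 were 2 and 1. They were 5 and 2 with no filter, 4 and 2 with DESeq2, 0 and 0 with limma voom and 8 and 5 with the replicate block, and 1 to 20 and 0 to 15 with a library left out. Calls among ribosomal protein genes were 0 in every setting but 1: without rIL-13 replicate 1, Rpl39 passed, with 2 rIL-13 libraries left. Leaving out a library gave 0 to 1 higher and 0 to 0 lower. The labels name no culture of origin, so whether the replicate number of the titles pairs libraries is unknown. Deviations of same-numbered libraries from their group means correlated at -0.0676, 0.0733 and -0.223, which with 3 libraries per group cannot decide it. The block called 0 ribosomal protein genes and gave a share difference of 0.44 percentage points. Share differences (rIL-13 minus vehicle) ranged from 0.09 to 1.09 for the set, 0.14 to 0.59 for the small subunit and -0.07 to 0.50 for the large subunit with a library left out. The subunit log2 ratio ranged from 0.01 to 0.07, the median log2 fold change from -0.05 to 0.09 and rho with coding length from -0.57 to -0.45. Among 46 named genes, 26 of 690 values changed sign and 1 passed (Rpl39). With a library left out the log2 fold changes of these genes ran from -0.07 to 0.08 for Rplp1, -0.18 to 0.02 for Rpl13a, -0.30 to 0.54 for Rpl22, -0.15 to 0.40 for Rpl7, -0.15 to 0.17 for Rpl7l1, -0.02 to 0.36 for Rpl36a, -0.09 to 0.02 for Rpl36al, -0.55 to 0.54 for Rps4x, -0.21 to 0.13 for Rps4l, -0.27 to 0.11 for Rps27l, -0.23 to 0.58 for Rps27a, -0.04 to 0.40 for Rpl37a, -0.10 to 0.12 for Rps3 and -0.19 to 0.20 for Rps25. The 3 other sign changes came without leaving out a library: Rpl22 was at -0.02 with voom, and with library totals alone Rpl7l1 was at 0.02 and Rps3 at 0.03. The cause of these changes was not tested.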
